A study of Homo sapiens with 4 samples.

Results

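MYCN and 9 genes near it on the short arm of chromosome 2 were examined in SK-N-BE(2) neuroblastoma cells after SAPCD2-knockdown. The 10 genes, out of 64252 in the count table, were selected on their position and with their CPM and fold change in these same libraries already known. Their values between the groups are therefore given as a description, with no p-value, and the calls that the test over all genes makes for them are counted once and support nothing. In the order of the chromosome the genes are TRIB2, NBAS, DDX1, MYCNOS, MYCN, GACAT3, CYRIA, VSNL1, SMC6 and GEN1, and all 10 were among the 18779 genes with enough counts to be tested. SK-N-BE(2) is an established human neuroblastoma line that carries extra copies of MYCN. Total RNA was sequenced from 2 libraries of cells carrying scrambled shRNA (sh-Scb) and 2 libraries of cells carrying shRNA against SAPCD2 (sh-SAPCD2). Per the study's methods both were stable lentiviral lines selected with puromycin, so every library comes from cells that carry a vector and were exposed to the drug. Nothing states that the libraries of a group came from separate cultures, and p-values therefore measure only the spread between these libraries, which may be technical.

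MYCN is a transcription factor of the MYC family that is present in the developing sympathetic nervous system. It binds DNA as a dimer with MAX, mostly at E-box sequences, and raises genes of ribosome synthesis and cell growth. In high-risk neuroblastoma a stretch of 2p24 around MYCN is often amplified, and neighbors such as DDX1 and NBAS can be copied along with it.

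RefSeq promoter windows of 300 bases were given for 9 of the 10 genes, and CYRIA had none. E2F factors, which drive genes of DNA replication, are known to bind the MYCN promoter, so the bases upstream of MYCN are shown. The search used the letters TTTCCCGC, TTTCGCGC, TTTGCCGC and TTTGGCGC on both strands for E2F and CACGTG for the E-box. The first sequence below lies at chr2:15940300-15940549 on the plus strand of GRCh38.p14, where the capitals mark the E2F letters TTTGGCGC and, on the other strand, TTTCGCGC, which share 4 bases. The second lies at chr2:17753855-17753884, across the start of GEN1 and upstream of SMC6, genes that run in opposite directions, and its capitals mark 1 match that falls in the windows of both.
MYCN upstream: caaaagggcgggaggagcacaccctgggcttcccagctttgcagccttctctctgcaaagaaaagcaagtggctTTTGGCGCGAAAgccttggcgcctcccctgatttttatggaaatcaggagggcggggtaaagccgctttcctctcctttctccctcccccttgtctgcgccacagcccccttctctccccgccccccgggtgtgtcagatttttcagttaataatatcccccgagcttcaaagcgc
GEN1 start: tgcgcagttgcggggTTTCGCGCcgccgga

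The MYCN matches began 176 and 172 bases before the RefSeq start. The shared match began 1 base after the GEN1 start and 67 bases upstream of the SMC6 start on its own strand. Of all 35116 RefSeq windows, 3.31% held an E2F match and 7.26% an E-box match. The 9 genes had 12 windows, and 3 of the genes held an E2F match: MYCN, and by the same match GEN1 and SMC6. None held an E-box match. The first shares count windows and the others genes, so they are not compared. A letter match is a description of the window and not a site of binding. In GENCODE windows from 500 bases before to 100 bases after the start, the genes with an E2F match were NBAS, MYCN, VSNL1, SMC6 and GEN1, VSNL1 also held an E-box, and 7.39% of the tested genes held an E2F match.

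Libraries held from 25347900 to 31850997 counts, and 3 counts equaled 0.0942 to 0.118 CPM. The targeted gene SAPCD2 was at 83.6 and 82.2 CPM in sh-Scb and at 35.4 and 52.5 CPM in sh-SAPCD2, so that 42.7% and 63.3% of the control level were left in the first and the second library. All 15 adrenergic neuroblastoma markers were among the tested genes, with summed levels of 6167 to 6291 CPM in sh-Scb and 5686 to 6136 CPM in sh-SAPCD2. Of these markers 2 were higher and 6 lower at an adjusted p under 0.05. The summed mesenchymal markers were at 1529 to 1540 CPM in sh-Scb and 795 to 872 CPM in sh-SAPCD2, with PRRX1 at 0. Most of this sum and of its difference was VIM, at means of 1188 CPM in sh-Scb and 536 CPM in sh-SAPCD2. Among the 7 tested, 1 marker was higher (FOSL1) and 2 were lower (VIM and FN1). CD44, TWIST1, SNAI2 and YAP1 did not pass. The summed Schwann cell markers were at 38.2 to 39.4 CPM against 51.6 to 57.2 CPM, with SOX10 at 0 and 2 of 3 tested markers higher. The haematopoietic, epithelial and endothelial lists summed to at most 14.1, 5.74 and 1.03 CPM in any library, with CD3E, HBB, KRT5 and CDH1 at 0. Of their 6 tested markers, CD14 (adjusted p = 0.0391) and VWF (adjusted p = 0.017) were higher, at means of 1.45 and 0.722 CPM in sh-SAPCD2, and none was lower. VWF passed the filter on low counts, at 0.365 CPM, only through sh-SAPCD2 and so had to be higher. The part of these marker differences in the results on the MYCN neighborhood was not tested.

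MYCN itself was the most abundant of the 10 genes and was higher in sh-SAPCD2. Its level was 3235 and 3178 CPM in the sh-Scb libraries and 5904 and 7091 CPM in the sh-SAPCD2 libraries. Both sh-SAPCD2 libraries lay above both controls, and the second lay further out. The mean went from 3207 ± 40.1 to 6498 ± 839 CPM (SD, n = 2 per group), a 2.03-fold difference and a log2 fold change of 1.02 ± 0.11 (SE). The smallest log2 ratio between an sh-SAPCD2 and an sh-Scb library was 0.87 and the largest was 1.16. In counts as deposited, MYCN held 89361 and 87449 counts in sh-Scb and 149464 and 222692 counts in sh-SAPCD2, or 0.326% and 0.319% of the library against 0.59% and 0.699%. In these bulk samples a change in the number of cells of a type and a change in the RNA per cell cannot be told apart.

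**Figure D1:**
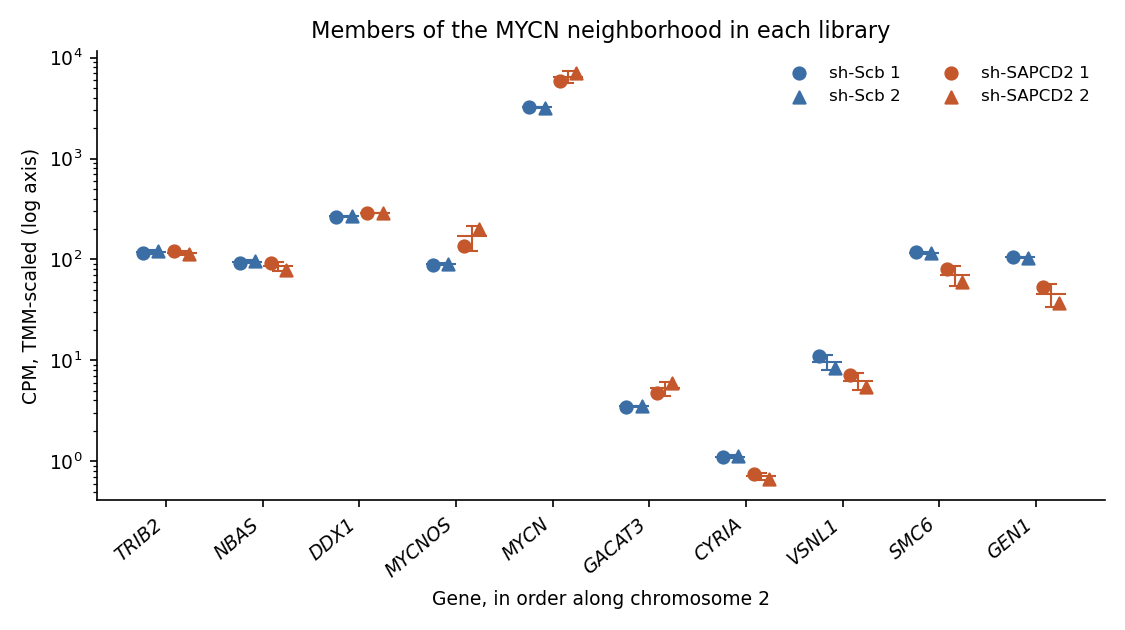
CPM of each of the 10 genes (log axis) in the 4 libraries, with genes in the order of chromosome 2. Circles are replicate 1 and triangles replicate 2, horizontal marks are group means and bars are 1 SD. The MYCN points lie at 3178 to 3235 CPM in sh-Scb and at 5904 to 7091 CPM in sh-SAPCD2, while SMC6 and GEN1 lie lower in both sh-SAPCD2 libraries than in the controls and the TRIB2 points overlap.

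MYCNOS is a non-coding RNA transcribed from the strand opposite MYCN across its start. It was at 88.1 and 90.6 CPM in sh-Scb and at 136 and 202 CPM in sh-SAPCD2, a log2 fold change of 0.92 ± 0.19 (SE). As for MYCN, the groups did not overlap and the second sh-SAPCD2 library was the highest. MYCNOS counts came to 2.72% and 2.85% of those of MYCN in sh-Scb and to 2.3% and 2.84% in sh-SAPCD2. The exons of both genes share 98 bases, and the use of strand in counting is not stated. At the mean level of MYCN per kb of exon, those bases would carry 114 CPM in sh-Scb and 231 CPM in sh-SAPCD2, which is more than the 89.3 and 169 CPM given to MYCNOS. Reads of MYCNOS and MYCN cannot be told apart over the shared bases.

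DDX1 and NBAS lie upstream of MYCN, 306 and 379 kb from it. DDX1, an RNA helicase of the tRNA splicing ligase complex, was at 266 and 268 CPM in sh-Scb and at 291 CPM in both sh-SAPCD2 libraries. The 4 values are tight and the groups do not overlap, yet the difference is small, with a log2 fold change of 0.13 ± 0.091 (SE). NBAS, a subunit of a tethering complex for vesicles between Golgi and endoplasmic reticulum and a factor in nonsense-mediated decay, was at 92.5 and 97.3 CPM in sh-Scb and at 91.1 and 79.1 CPM in sh-SAPCD2. The first sh-SAPCD2 library lies just under the lower control, and the log2 fold change was -0.16 ± 0.12 (SE). Per kb of exon, the level of MYCN was 44.1 times that of DDX1 in sh-Scb and 82 times that of DDX1 in sh-SAPCD2. By the length of the longest transcript these ratios were 24.9 and 46.3.

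GACAT3 is a long non-coding RNA whose gene begins 66.9 kb downstream of MYCN. It was at 3.48 and 3.53 CPM in sh-Scb and at 4.7 and 5.89 CPM in sh-SAPCD2. The groups did not overlap and the log2 fold change was 0.6 ± 0.22 (SE). The gene shares 195 bases of exon with the RNA ENSG00000236989.

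CYRIA lies 602 kb downstream and encodes a protein that binds RAC1 and restrains branched actin. Its level was 1.09 and 1.13 CPM in sh-Scb and 0.751 and 0.669 CPM in sh-SAPCD2, from 19 to 31 counts per library. The log2 fold change of -0.64 ± 0.36 (SE) rests on few reads. VSNL1 encodes visinin-like protein, a neuronal calcium sensor. It was at 10.9 and 8.43 CPM in sh-Scb and at 7.15 and 5.41 CPM in sh-SAPCD2, a log2 fold change of -0.62 ± 0.23 (SE). TRIB2, a Tribbles pseudokinase at the far upstream end, 3198 kb from MYCN, was at 115 and 122 CPM in sh-Scb and at 120 and 113 CPM in sh-SAPCD2. It was the only one of the 10 genes whose groups overlapped, with a log2 fold change of -0.03 ± 0.1 (SE).

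SMC6 and GEN1 lie at the downstream end, 1717 and 1807 kb from MYCN, and were lower in sh-SAPCD2. GEN1 is a nuclease that cuts Holliday junctions, the crossed DNA strands of recombination. It was at 106 and 104 CPM in sh-Scb and at 53.3 and 37 CPM in sh-SAPCD2, or 51% and 35.4% of the control mean. The groups are far apart, and the log2 fold change was -1.21 ± 0.18 (SE). SMC6 is a core subunit of the SMC5/6 complex, which holds and untangles DNA during replication and repair. It was at 118 and 115 CPM in sh-Scb and at 81.1 and 59.2 CPM in sh-SAPCD2, or 69.6% and 50.9% of the control mean, with a log2 fold change of -0.73 ± 0.16 (SE). The exons of both genes share 107 bases, over which the level of GEN1 per kb would put 0.946 CPM in sh-Scb and 0.409 CPM in sh-SAPCD2, a small share of the SMC6 level.

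Of the 10 genes, MYCN and MYCNOS were higher and SMC6 and GEN1 lower at an adjusted p under 0.05 in the edgeR fit over all genes. Over all tested genes 12.4% were higher and 12.5% lower by this rule. With an absolute log2 fold change over 1 as well, MYCN was higher and GEN1 lower, where the background was 4.69% and 5.15%. The log2 fold change of MYCN was under 1 with the GC content and length correction (0.92) and without the second sh-SAPCD2 library (0.88). That of GEN1 was -0.97 without the second sh-SAPCD2 library. The groups did not overlap for 4 genes that were higher and 5 that were lower, against 33.5% and 33.4% of all tested genes. Because the genes were selected with these values known, nothing is read from these counts. MYCNOS did not pass when genes of low counts were kept, and SMC6 did not pass in that setting or without either sh-Scb library. For MYCN the first and the second sh-SAPCD2 library were at 184% and 221% of the control mean, and for DDX1 both were at 109%. SAPCD2 was reduced more in the first. How these libraries compare over all tested genes was not counted, so nothing is read from this.

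Apart from the 10 genes, the count table held 38 annotated genes between the ends of TRIB2 and SMC6, and 11 of them had enough counts to be tested. Of these, 4 passed the filter on low counts only through the sh-SAPCD2 libraries and so had to be higher there, and nothing is read from their tests. Of the other 7, 2 rose, none fell and 5 did not pass, where 12.4% of all tested genes were higher and 12.5% lower. All 7 lie downstream of MYCN, at 3.68 to 369 kb, so this position does not set apart those that rose. Both that rose are long non-coding RNAs, at 138 and 255 kb, and the long non-coding RNAs at 277, 280 and 369 kb did not pass. ENSG00000226041, a long non-coding RNA, rose from 7.2 and 7.45 CPM to 26.1 and 29.3 CPM, a 3.78-fold increase (log2 fold change 1.92 ± 0.15 SE, adjusted p = 0.00215, edgeR). ENSG00000236989, the RNA that shares exon bases with GACAT3, rose from 3.58 and 3.93 CPM to 9.56 and 8.72 CPM (log2 fold change 1.28 ± 0.19 SE, adjusted p = 0.0076). For both, each sh-SAPCD2 library lay above each control.

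Among the 4 that passed the filter only through sh-SAPCD2, a pair lies close to MYCN and is named after its values were seen. ENSG00000226764, which overlaps GACAT3, was at 0.217 and 0.109 CPM in sh-Scb and at 0.909 and 0.923 CPM in sh-SAPCD2. The small nucleolar RNA ENSG00000251704 was at 0.145 and 0.109 CPM in sh-Scb and at 0.711 and 0.669 CPM in sh-SAPCD2. The sh-Scb values of both are close to the level of 3 counts. The long non-coding RNAs ENSG00000228876 and ENSG00000232444, at 277 and 369 kb, had log2 fold changes of 0.03 ± 0.2 (SE, adjusted p = 0.922) and 0.04 ± 0.36 (SE, adjusted p = 0.941).

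**Figure D2:**
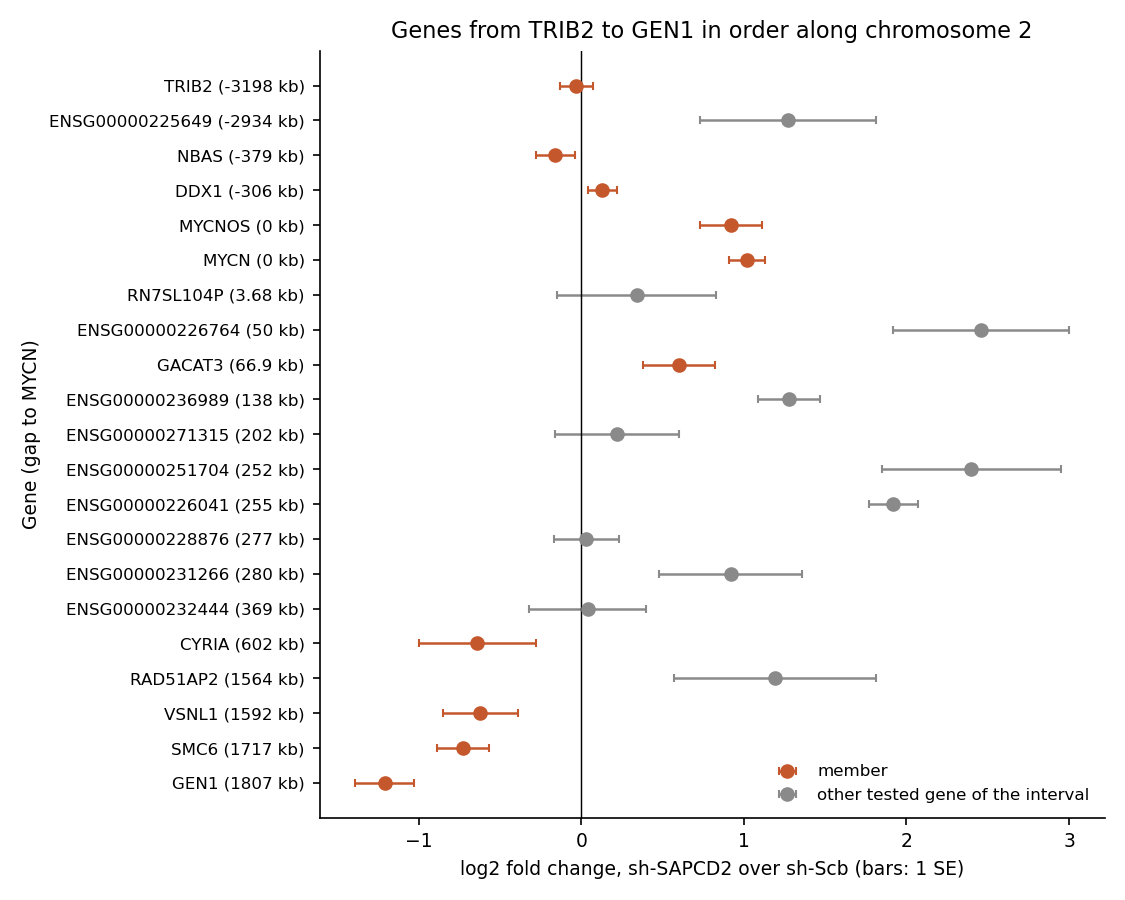
Log2 fold change of sh-SAPCD2 over sh-Scb for the 10 genes (orange) and the 11 other tested genes of the interval (grey), in the order of chromosome 2 with the gap to MYCN in kb beside each name. Points are edgeR estimates from 2 libraries per group and bars are 1 SE. Of the grey points, 4 passed the filter on low counts only through sh-SAPCD2 and so had to lie to the right of 0. These are ENSG00000225649, ENSG00000226764, ENSG00000251704 and RAD51AP2. MYCN, MYCNOS and the RNAs ENSG00000236989 and ENSG00000226041 lie to the right, DDX1, NBAS and TRIB2 lie near 0, and SMC6 and GEN1 lie to the left.

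Per kb of exon, MYCN was at 1164 CPM in sh-Scb, 356 times the median of 3.27 CPM over 17467 annotated genes, and its rank was 22. In sh-SAPCD2 its level per kb was 2358 CPM and its rank 15. Among the 10 genes the order of levels per kb in sh-Scb was MYCN, DDX1 (26.4), TRIB2 (26), MYCNOS (17.3), SMC6 (11.9), GEN1 (8.85), NBAS (4.51), VSNL1 (2.55), GACAT3 (0.932) and CYRIA (0.203). DDX1 and TRIB2 differ by less than the spread of TRIB2 between the sh-Scb libraries. In sh-SAPCD2, MYCNOS was at 32.6, GEN1 at 3.82 and NBAS at 4.04 CPM per kb. The order below MYCN depends on the length used. By the longest transcript, sh-Scb levels were 1227 for MYCN, 49.3 for DDX1, 27.8 for MYCNOS, 27.4 for TRIB2 and 9.93 CPM per kb for NBAS, and in sh-SAPCD2 DDX1 was at 53.7 and MYCNOS at 52.4 CPM per kb.

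**Figure D3:**
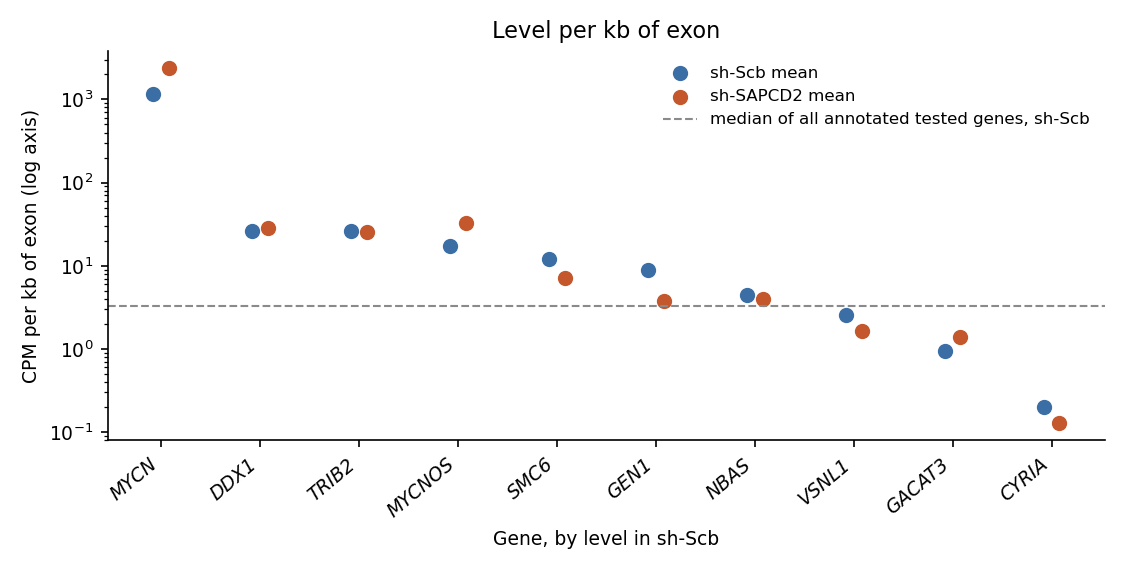
Mean level of the 10 genes in CPM per kb of exon (log axis) in sh-Scb (blue) and sh-SAPCD2 (orange), ordered by the level in sh-Scb. The dashed line is the median of all annotated tested genes in sh-Scb, 3.27 CPM per kb. MYCN lies far above the others at 1164 and 2358 CPM per kb, and CYRIA lies lowest.

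The counts of the lists that follow stand beside the 12.4% of all tested genes that were higher and the 12.5% that were lower. They were not compared with these shares by a test. Both shares belong to the main fit. The number called over all tested genes also changes when a library is left out or the filter or correction is changed. Fewer genes were called in each direction without either sh-Scb library, and more without either sh-SAPCD2 library. With the GC content and length correction 3875 were higher and 3447 lower, and with genes of low counts kept 1081 and 1180. List counts under such settings shift against this background, are given without a share beside them and do not set a list apart. The list of MYCN transcriptional regulators holds E2F factors and other genes that act on MYCN or sit with it in the adrenergic neuroblastoma circuit. Of 23 tested, 2 rose and 9 fell at an adjusted p under 0.05 (edgeR, all genes), and the median log2 fold change was -0.37. E2F8, a repressor of the E2F family, fell from a mean of 20.5 ± 0.391 to 3.76 ± 0.496 CPM (SD, adjusted p = 0.00201). E2F2, an activator of the family, fell from 70 ± 0.682 to 35.3 ± 0.67 CPM (SD, adjusted p = 0.00401). KDM6B, a histone H3 lysine demethylase, rose by 1 on the log2 scale (adjusted p = 0.0057). The number that fell ranged from 6 without either sh-Scb library to 16 without the second sh-SAPCD2 library, and was 17 after a correction for GC content and length, while the number that rose ranged from 1 to 4.

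Proteins that bind MYCN or set its turnover gave 1 gene that rose and 4 that fell of 15, with a median log2 fold change of -0.24. FBXW7, which recognizes phosphorylated MYC proteins for the proteasome, rose from a mean of 46.2 ± 0.128 to 79.7 ± 9.86 CPM (SD, adjusted p = 0.00997). The kinases CDK1, GSK3B and PLK1 fell by 1.06, 1.05 and 0.68 on the log2 scale, and the ubiquitin ligase HUWE1 fell by 0.52 (adjusted p from 0.00342 to 0.0279). CDK1 and GSK3B phosphorylate the stretch that FBXW7 reads, and PLK1 acts against FBXW7. Without either sh-Scb library the number that fell was 2 and none rose, and without the first sh-SAPCD2 library 9 fell.

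Of 39 tested genes that MYC proteins are known to induce, 4 rose (10.3%), 5 fell (12.8%) and 30 did not pass, with a median log2 fold change of 0.1. These shares are close to those over all tested genes, 12.4% and 12.5%. TFRC, the transferrin receptor, rose from a mean of 303 ± 5.16 to 509 ± 41.8 CPM (SD, adjusted p = 0.00606). The ribosome assembly factors RRS1 and NOP16 rose by 1.08 and 0.71 on the log2 scale (adjusted p = 0.00949 for both). LDHA, which makes lactate, fell by 1.14 and SRM, which makes spermidine, fell by 1.45 on the log2 scale (adjusted p = 0.00565 and 0.00591). These counts depend on single libraries, and so do the shares over all tested genes. The median log2 fold change was 0.1 without the first sh-Scb library and 0.13 without the second. It was 0.16 without the first sh-SAPCD2 library and -0.04 without the second.

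Of 20 tested genes that MYC proteins are known to repress, 8 rose, 3 fell and 9 did not pass, and the median log2 fold change was 0.47. SPARC, a matrix protein, rose from a mean of 103 ± 0.202 to 179 ± 5.59 CPM (SD, adjusted p = 0.00468). The chaperone gene CLU and the ferritin gene FTH1 rose by 1.05 and 0.64 on the log2 scale (adjusted p = 0.01 and 0.0111). DKK1, a WNT inhibitor, and GAS1, a growth arrest gene, fell by 0.76 and 1.39 (adjusted p = 0.00606 and 0.0133). The number that rose was 4 without either sh-Scb library, and 3 when genes of low counts were kept, and 1 fell without the second sh-Scb library.

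The partner genes of GEN1 and SMC6 that passed the test fell. Without GEN1, 13 genes of Holliday junction processing were tested, of which 7 fell, none rose and 6 did not pass, with a median log2 fold change of -0.71. EME1, the regulatory partner of the nuclease MUS81, fell from a mean of 24.3 ± 0.112 to 8.75 ± 0.481 CPM (SD, adjusted p = 0.00321). BRCA2, a recombination mediator, fell from 39.4 ± 1.73 to 9.29 ± 2.83 CPM (SD, adjusted p = 0.0037). The helicase gene BLM and RMI2 of the BLM complex fell by 1.25 and 1.35 on the log2 scale (adjusted p = 0.00489 and 0.00597). The number that fell was 5 to 9 when 1 library was left out.

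Of the 8 tested SMC5/6 genes other than SMC6, 3 fell and 5 did not pass. SLF1, a loading factor, fell by 0.91 (adjusted p = 0.0114), NSMCE4A, a subunit, by 0.64 (adjusted p = 0.0164), and EID3, its germline relative, by 1.99 on the log2 scale (adjusted p = 0.0211) from a mean of 1.34 CPM. EID3 passed the filter on low counts only through sh-Scb and so had to be lower in sh-SAPCD2. SMC5, the direct partner of SMC6, was at 65.6 and 66.6 CPM in sh-Scb and at 69.9 and 43.8 CPM in sh-SAPCD2 (adjusted p = 0.497), with the second sh-SAPCD2 library alone below the controls. NSMCE1, NSMCE2, NSMCE3 and SLF2 had log2 fold changes of 0.05, -0.26, 0.45 and 0.37 and did not pass. No gene of the list fell without the second sh-Scb library, and 2 fell without the first. After the correction for GC content and length, 2 genes of the list rose beside the 3 that fell.

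The list built around the tRNA ligase complex of DDX1 also holds genes that are not subunits of it. Of its 9 genes other than DDX1, 1 rose, 1 fell and 7 did not pass. FAM98A rose from 52.5 and 50.3 CPM to 118 CPM in both sh-SAPCD2 libraries (log2 fold change 1.2 ± 0.1 SE, adjusted p = 0.00263), while its relative FAM98B fell by 0.64 on the log2 scale (adjusted p = 0.0153). RTCB, the ligase itself, had a log2 fold change of 0.34 (adjusted p = 0.077). RTRAF, C2orf49, FAM98C, ZBTB8OS, ELAC2 and TRPT1 had log2 fold changes from -0.28 to 0.38. FAM98B did not pass without either sh-Scb library or with genes of low counts kept, and 4 genes rose without the first sh-SAPCD2 library.

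Among 18 other genes of the NBAS tethering complex and of nonsense-mediated decay, 1 rose and 3 fell. DHX34, a helicase of the decay pathway, rose by 0.74, and ZW10, the subunit next to NBAS, and the decay factors SMG9 and SMG8 fell by 0.65, 0.72 and 0.55 on the log2 scale (adjusted p from 0.0229 to 0.0302). SEC22B, a SNARE, was at 0.41 (adjusted p = 0.0531). None of these 4 calls held without either sh-Scb library, and 8 genes fell without the first sh-SAPCD2 library.

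Of 15 other genes of actin control by RAC1, 4 fell and none rose. The WAVE subunit genes WASF2 and WASF1 fell by 2.06 and 1.77 on the log2 scale (adjusted p = 0.00201 for both), from means of 158 and 110 CPM to 37.9 and 32.3 CPM. CYRIB, the paralog of CYRIA, fell from a mean of 111 ± 4.05 to 80.8 ± 3.71 CPM (SD, adjusted p = 0.0254), and ABI2 fell by 0.51 (adjusted p = 0.0303). ACTR3 of the ARP2/3 complex was at -0.35 (adjusted p = 0.0715). The number that rose was 2 after the correction for GC content and length, and the number that fell was 2 without either sh-Scb library and 8 without the first sh-SAPCD2 library.

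TRIB3, a relative of TRIB2, rose from 12 and 11.9 CPM to 26.3 and 30.8 CPM (adjusted p = 0.00454), while TRIB1 was at 40.8 CPM in both sh-Scb libraries and at 55.7 and 48.8 CPM in sh-SAPCD2 (adjusted p = 0.0845). A test of the difference between the 3 genes was not made. Of the 9 genes other than TRIB2 in this list, 3 rose and none fell. CEBPB, a transcription factor, rose by 1.2 and the kinase gene MAP2K1 by 0.6 on the log2 scale (adjusted p = 0.0153 and 0.0218). AKT1, CEBPA, CEBPD, FOXO3 and COP1 had log2 fold changes of 0.5, 1.02, -0.27, 0.11 and 0.06 and did not pass. Without the first sh-SAPCD2 library 6 genes rose, and with genes of low counts kept 1 rose.

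Of the 10 tested calcium sensors other than VSNL1, 4 rose and 1 fell. NCALD rose from a mean of 29.3 ± 2.92 to 53.3 ± 0.183 CPM (SD, adjusted p = 0.00774), and HPCA, GUCA1A and HPCAL4 rose by 1.54, 1.3 and 1.08 on the log2 scale from means of at most 2.56 CPM. KCNIP4, which binds potassium channels, fell by 1.09 (adjusted p = 0.0132). The number that rose was 2 without either sh-Scb library, and the number that fell went from 0 without the second sh-Scb library to 3 without the second sh-SAPCD2 library.

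**Figure D4:**
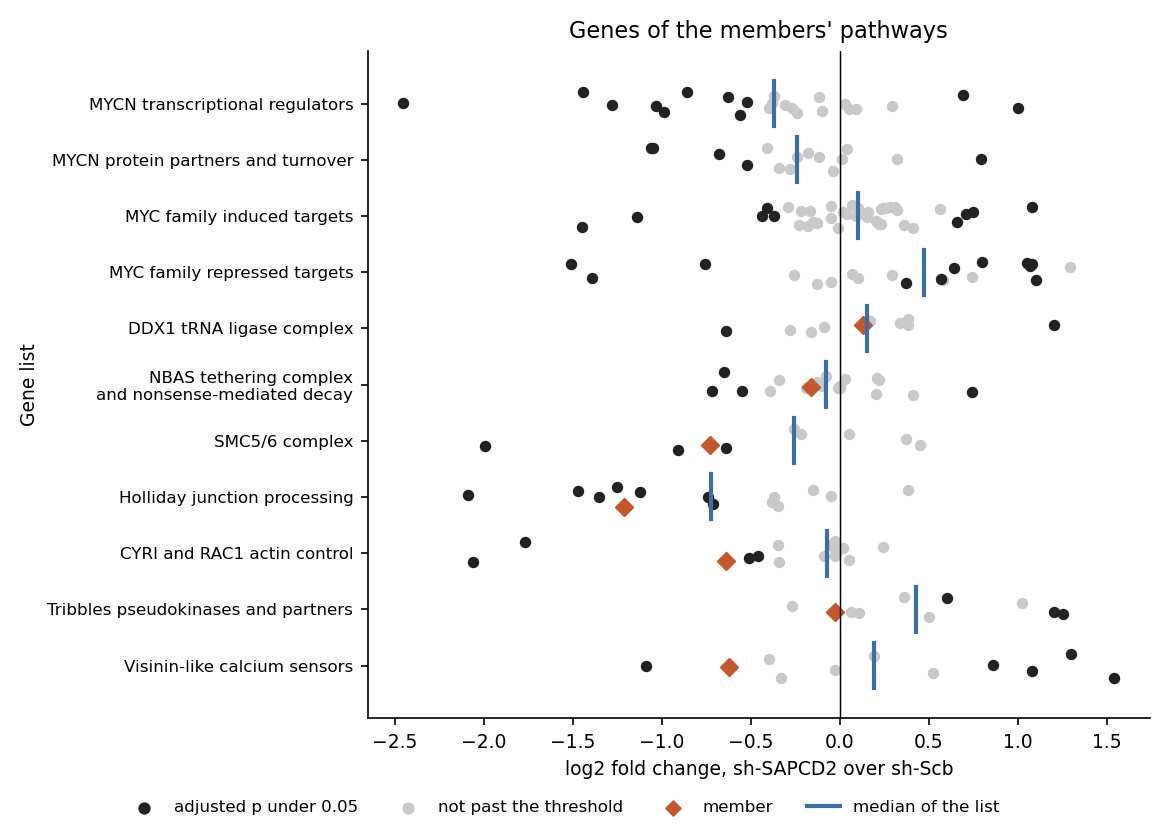
Log2 fold change of sh-SAPCD2 over sh-Scb for each tested gene of the 11 lists, 1 row per list. Black points passed an adjusted p of 0.05 in the edgeR fit over all genes, grey points did not, orange diamonds are members of the MYCN neighborhood and blue bars are list medians. The Holliday junction genes lie mostly to the left of 0, and the genes that MYC proteins induce lie on both sides with a median of 0.1.

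The genes whose levels over the 4 libraries were most like MYCN were sought among 10434 genes with a mean of at least 10 CPM, by the Euclidean distance of log2 CPM after centring each gene. TAGLN3 (distance 0.00614), KLHL36 (0.039), PLXNA3 (0.0404) and SLC7A5 (0.0438) were among the nearest, and none of them lies on chromosome 2. Their log2 fold changes were 1 to 1.01. For GEN1 the nearest were POLD3, CEP152, CAST, KIF4A and KIF20A at distances of 0.0452 to 0.0785, and for SMC6 they were KMT2A, ZNF519, TOPBP1, CILK1 and HELZ at 0.0276 to 0.0524. With 4 libraries in 2 groups this likeness mostly follows the difference between the groups.

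The study's first shRNA against SAPCD2, taken as the one sequenced although the labels do not number it, is shown because a seed match in a 3′ UTR can lower an RNA that was not targeted. The capitals mark bases 2 to 8 of the strand complementary to SAPCD2.
sh-SAPCD2 #1 guide arm: aTGAAGGTggaatccagaggt

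The letters ACCTTCA, complementary to this seed, occurred once in the annotated 3′ UTR of TRIB2 and in none of the other 7 genes that have one. TRIB2 was at 115 and 122 CPM in sh-Scb and at 120 and 113 CPM in sh-SAPCD2. Of 13596 tested genes with a 3′ UTR, 12.5% held the letters. The match of the opposite arm, CCAGAGG, occurred once in the 3′ UTR of CYRIA and in 17.6% of these genes. The 3′ UTRs of MYCN, SMC6 and GEN1 held neither.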

How the data were processed

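The authors sequenced 4 libraries, aligned reads to hg38 (HISAT2 2.2.0 in the submitters' processing notes), estimated abundances with StringTie and deposited unscaled whole-number counts per gene. The annotation release, the use of strand and the treatment of multi-mapping reads are not given in the sources used here. Of 18779 tested genes, 17467 matched GENCODE annotation of the same build. Sequences are from RefSeq on GRCh38.p14.

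Counts were scaled by TMM, filtered by filterByExpr (minimum count 10, minimum total 15) and tested with edgeR 4.0.16 (quasi-likelihood) in R 4.3.3, p-values being adjusted across every tested gene by Benjamini-Hochberg. CPM carry the TMM scaling, and a prior count of 2 entered log2 CPM. Floors of 3 counts cover counting error only. Named were the members, other interval genes with a mean of at least 1 CPM, at most 5 genes per list by p (all in lists of up to 10 genes), the 5 nearest genes by distance, and SAPCD2. Some genes that this rule names are not reported here. Members and lists were chosen with earlier results of these data known. The fit was tested on simulated data. Alternatives were other scalings and filters, DESeq2 1.42.0, a replicate block, a GC content and length correction, and leaving out each library.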

Additional observations from a re-analysis of the deposited data

How the results depend on the processing

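The direction of the log2 fold change of MYCN was kept in all 12 alternatives across all genes, with values from 0.88 to 1.14, and leaving out 1 library gave 0.88 to 1.14. GEN1 ranged from -1.5 to -0.97. The genes called with an absolute log2 fold change over 1 numbered 880 higher and 968 lower. The higher count was 553 when genes of low counts were kept, and 705 to 1323 when 1 library was left out, while without the fold threshold 2326 were higher and 2339 lower. Of the other genes of the interval, 4 were called higher, 2 of which passed the filter only through sh-SAPCD2. The count was 2 with genes of low counts kept or with a minimum mean of 1 CPM, and 2 to 3 when 1 library was left out. The median log2 fold change of all 11 other genes was 1.19, which includes the 4 that had to be higher. It was 0.34 for the 7 that passed the filter in both groups, and 0.02 over all tested genes. The median of 1.19 became 0.65 with the minimum mean, which left 4 genes, and 0.59 to 1.35 when 1 library was left out. Across the 12 alternatives the log2 fold change of DDX1 ranged from 0.11 to 0.25 and that of NBAS from -0.27 to -0.04. VSNL1 ranged from -0.84 to -0.43 and GACAT3 from 0.43 to 0.74. Whether these genes passed the threshold changed with the setting. The E2F match count of 3 became 5 with the longer window.

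With the replicate number as a block, the log2 fold change of MYCN was 1.01, and the counts at an adjusted p under 0.05 went from 2326 and 2339 to 2860 and 2701. The deviations of same-numbered libraries correlated at -0.019. With 2 libraries per group this value cannot decide whether same-numbered libraries were prepared together, and the labels do not say. With 2 libraries per group, calls of differences near the spread between libraries change with the setting, and CYRIA rests on at most 31 counts per library.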
